A study of Homo sapiens with 18 samples.

Results

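A set of 10 genes that mark or drive the epithelial or the mesenchymal state of a cell was followed across the RNA of RPE-1 cells, an hTERT-immortalized line from human retinal pigment epithelium. They are 6 transcription factors (SNAI1, SNAI2, ZEB1, ZEB2, TWIST1 and TWIST2), the mesenchymal effectors VIM and CDH2, and the epithelial keratins KRT8 and KRT18. They were chosen by name, with earlier results of these data known. All 10 are among the 33121 genes of the deposited count table, and all 10 passed the low-count filter, which left 13676 genes. The study, on MondoA and senescence, compared cells whose MLXIP, which encodes MondoA, was silenced by siRNA (siMondoA), cells in which its dimer partner MLX was silenced (siMlx), and cells given a control siRNA (siControl). Transfection lasted 2 days and used Lipofectamine RNAiMax. Cells of each siRNA were then given doxorubicin (DXR), a drug that damages DNA, at 150 ng/ml for 3 days, or were untreated. The 6 groups are therefore siMondoA with DXR, siMlx with DXR, siControl with DXR, siMondoA untreated, siMlx untreated and siControl untreated, with 3 libraries each. All groups share the 1 cell line, and the labels do not say whether replicates were separate cultures, so the p-values stand for the spread of these libraries alone, which may be technical.

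In the epithelial-mesenchymal transition, transcription factors of the SNAIL, ZEB and TWIST families bind E-box sequences, repress epithelial genes such as CDH1 and favour mesenchymal genes such as CDH2 and VIM. The keratins KRT8 and KRT18 pair with each other to form the intermediate filaments of simple epithelia, while vimentin builds those of mesenchymal cells. Pigment epithelial cells express KRT8 and KRT18 and commonly add vimentin once they grow in culture. MondoA and MLX act together as a dimer of the basic helix-loop-helix family that binds E-box elements of genes for glucose use.

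The libraries held 15503423 to 29219280 counts, and each siRNA lowered its target. MLXIP averaged 3.85 ± 0.65 CPM (counts scaled to a common library total after TMM) in untreated siMondoA cells and 68.7 ± 4.6 CPM in untreated siControl cells (SD, n = 3 each). MLX averaged 7.002 ± 0.18 CPM in untreated siMlx cells and 26.3 ± 0.95 CPM in untreated siControl cells. MLX was 1.87-fold higher in siMondoA than in siControl untreated cells (adjusted p = 5.26e-10). The untreated library numbered 3 of each siRNA stood apart in these genes, with the lowest KRT8 and KRT18 and the highest VIM of its group, and the lowest CDH2. The tag D5 is in the names of DXR libraries and D0 in those of untreated ones without an explanation, so DXR and any difference in harvest day cannot be told apart. In these bulk samples, fewer cells of a type and less RNA per cell cannot be told apart.

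The labelled cell type was checked against its markers. Of 15 markers of retinal pigment epithelium, 6 passed the filter, among them the transcription factors MITF, OTX2 and PAX6, while RPE65, the retinoid isomerase that defines the mature tissue, had 0 to 13 counts per library and the pigment genes TYR and DCT had 0 to 4 and 0 to 1. CDH1, the epithelial cadherin, had 0 to 7 counts and EPCAM, another epithelial surface protein, had 0 to 2, so neither was tested. Blood and endothelial markers summed to 3.24 to 8.10 CPM, with HBB at 0 in all libraries. Fibroblast and mural cell markers summed to 609 to 637 CPM in siMondoA, 741 to 787 CPM in siMlx and 732 to 795 CPM in siControl cells with DXR. In untreated cells the same markers summed to 370.0 to 408 CPM with siMondoA, 439 to 471 CPM with siMlx and 486 to 519 CPM with siControl.

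Per gene length, vimentin was far ahead of the other genes in every group. Mean VIM levels ran between 853 RPKM (the authors' values, scaled to gene length and library total) in siControl cells with DXR and 1440 RPKM in untreated siMlx cells. KRT18, KRT8 and CDH2 followed, and the 6 transcription factors came last. In untreated siControl cells KRT18 averaged 178 ± 31.1 RPKM, KRT8 152 ± 20.4 RPKM and CDH2 81.8 ± 9.5 RPKM (SD, n = 3 each). The libraries of KRT18 and KRT8 overlapped there, and those of CDH2 lay below both. The order differed in untreated siMlx cells, where CDH2 averaged 120.4 ± 10.4 RPKM, KRT8 117 ± 14.1 RPKM and KRT18 90.9 ± 16.1 RPKM, with overlapping libraries for CDH2 and KRT8 and for KRT8 and KRT18. It also differed in siMlx cells with DXR, where KRT8 averaged 258.2 RPKM and KRT18 225.7 RPKM, without overlap. Among the factors, SNAI1 led in all 6 groups, with 9.75 to 14.7 RPKM in untreated siControl libraries. ZEB1 came next there at 5.76 ± 0.35 RPKM, followed by SNAI2 at 4.97 ± 0.60 RPKM, ZEB2 at 4.16 ± 0.37 RPKM, TWIST2 at 3.62 ± 0.35 RPKM and TWIST1 at 2.02 ± 0.32 RPKM. In that order, ZEB1 overlapped SNAI2 and ZEB2 overlapped TWIST2. With DXR the libraries of SNAI1 overlapped those of the next factor, which was ZEB1 with siMondoA, SNAI2 with siMlx and ZEB1 with siControl.

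**Figure D1:**
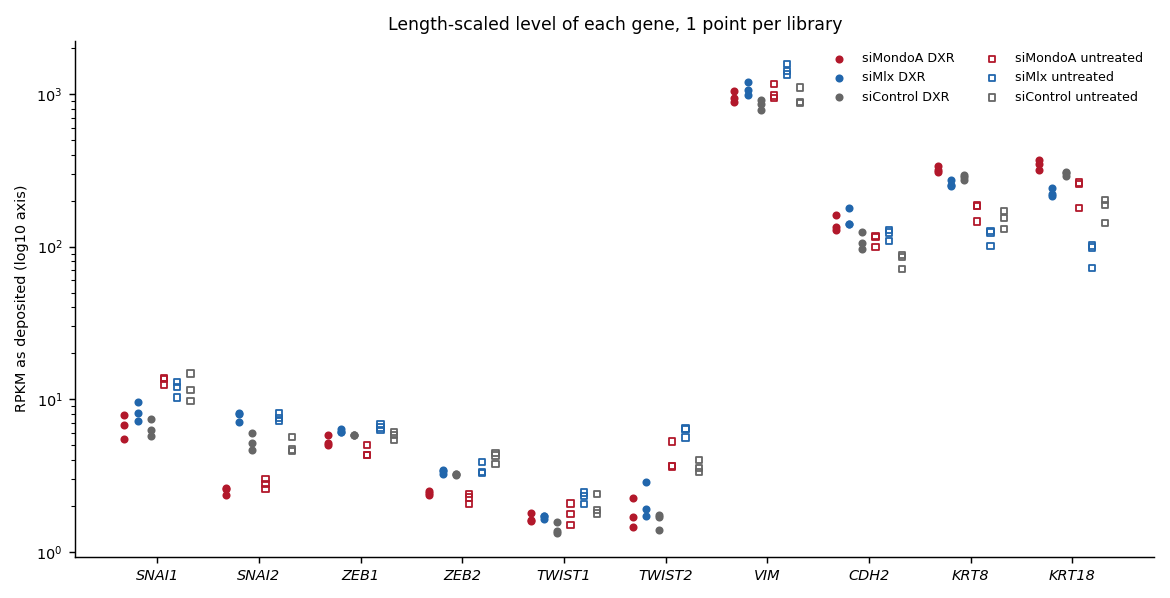
RPKM of the 10 genes as deposited, on a log10 axis, with 1 point per library, coloured by siRNA (filled circles, DXR; open squares, untreated). VIM lies between 786.5 and 1567 RPKM in all libraries and TWIST1 between 1.32 and 2.45 RPKM.

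Several of the genes passed the test with each knockdown, for siMondoA at a share near that of all genes. In untreated cells siMondoA lowered SNAI2, ZEB2 and ZEB1 and raised CDH2 and KRT18 relative to siControl, so that 5 of 10 genes passed the test. That share was read against the 46.6% of all genes tested that passed in this comparison (edgeR's quasi-likelihood test, Benjamini-Hochberg adjusted p under 0.05). With siMlx, VIM, CDH2, TWIST2 and SNAI2 were higher and KRT8, KRT18 and ZEB2 lower than with siControl, 7 of 10 genes against 47.9% of all genes. With DXR in both groups, siMondoA gave 1 gene higher (CDH2) and 2 lower (ZEB2 and SNAI2), where 24.8% of all genes passed. With DXR, siMlx gave 3 genes higher (VIM, CDH2 and SNAI2) and 1 lower (KRT18), where 30.2% of all genes passed. The median log2 fold change of the 10 genes was 0.10 for siMondoA and 0.15 for siMlx in untreated cells, and 0.16 and 0.31 with DXR, beside medians of 0.02, 0.02, 0.01 and 0.01 over all genes tested. The comparisons of a condition share their siControl libraries.

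KRT8, KRT18 and CDH2 were higher and TWIST2 and SNAI1 lower in DXR than in untreated cells with each of the 3 siRNAs. The SNAI1 call with siMlx was lost in other settings, given below. As said above, DXR and any difference in harvest day cannot be told apart. With siMondoA, 5 of the 10 genes were higher and 2 lower in DXR than in untreated cells, where 54.2% of all genes passed. With siMlx, 3 were higher and 4 lower, where 62.1% of all genes passed. With siControl, 3 were higher and 4 lower, where 56.7% of all genes passed. The median log2 fold change of the 10 genes was 0.13 with siMondoA, 0.06 with siMlx and 0.02 with siControl, beside -0.02, 0.00 and -0.01 over all genes tested.

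**Figure D2:**
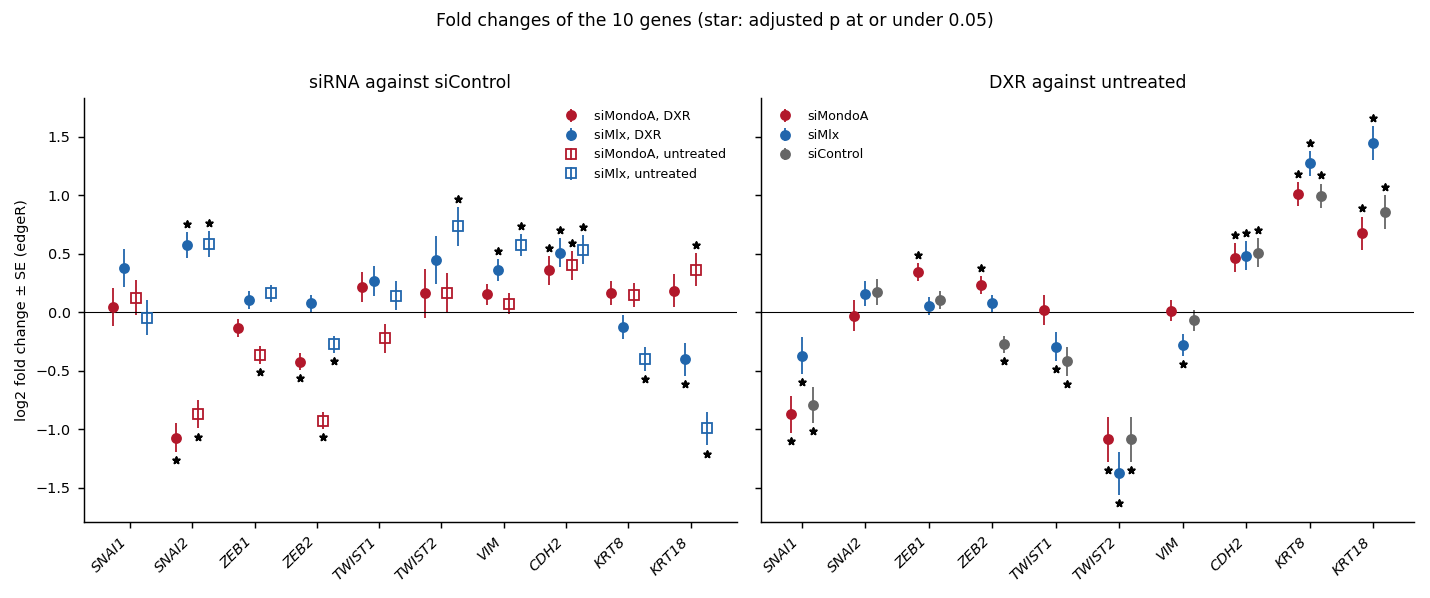
log2 fold change with its SE for each of the 10 genes. The left panel sets siMondoA and siMlx against siControl, with DXR (filled circles) and untreated (open squares); the right panel sets DXR against untreated with each siRNA. Stars mark adjusted p at or under 0.05. SNAI2 lies at or below -0.87 with siMondoA and at or above 0.57 with siMlx, and KRT8 lies at or above 1.00 under DXR with each siRNA.

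SNAI2 encodes SLUG, a zinc-finger repressor of the SNAIL family (chr8:48917604-48921740, minus strand, GRCh38). It moved in opposite directions with the 2 knockdowns. In untreated cells it had 5.29, 5.62 and 5.92 CPM with siMondoA, 16.3, 14.6 and 15.2 CPM with siMlx, and 11.7, 9.47 and 9.52 CPM with siControl. With DXR it had 5.67, 5.07 and 5.78 CPM with siMondoA, 18.1, 15.4 and 18.04 CPM with siMlx, and 13.3, 9.98 and 11.4 CPM with siControl. Every siMondoA library lay below every siControl library and every siMlx library above them, with no overlap in either condition. The log2 fold change of siMondoA against siControl was -0.87 ± 0.12 (SE) in untreated cells (adjusted p = 7.19e-06) and -1.07 ± 0.12 with DXR (adjusted p = 2.42e-06). The fold change of siMlx against siControl was 0.58 ± 0.11 in untreated cells (adjusted p = 0.000193) and 0.57 ± 0.11 with DXR (adjusted p = 0.000504). Set directly against siMlx, siMondoA gave -1.45 ± 0.12 in untreated cells and -1.64 ± 0.12 with DXR (adjusted p = 3.29e-09 and 1.76e-09). DXR against untreated gave -0.03 ± 0.13 with siMondoA, 0.16 ± 0.11 with siMlx and 0.17 ± 0.11 with siControl, and none of these passed the test.

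SNAI1 encodes SNAIL, the family's founding repressor in this transition (chr20:49982999-49988886, plus strand). It did not follow SNAI2. With DXR it had 13.9, 11.8 and 9.80 CPM with siMondoA, 17.6, 12.6 and 14.6 CPM with siMlx, and 13.2, 11.1 and 10.2 CPM with siControl. In untreated cells it had 22.3, 22.6 and 20.01 CPM with siMondoA, 21.3, 19.8 and 16.7 CPM with siMlx, and 19.2, 24.75 and 16.05 CPM with siControl. DXR libraries lay below untreated libraries with siMondoA and with siControl, and overlapped them with siMlx. The DXR log2 fold change was -0.87 ± 0.16 with siMondoA and -0.79 ± 0.155 with siControl (adjusted p = 0.000116 and 0.000232). With siMlx it was -0.37 ± 0.155 (adjusted p = 0.0451), a call lost with RLE scaling (adjusted p = 0.05565), upper-quartile scaling (0.0558) and DESeq2 (0.0602), and without untreated siMlx library 1 or 2 or DXR siMlx library 2 or 3 (-0.26 to -0.36, adjusted p up to 0.1998). With all 18 libraries, the low-count filter and no replicate block, no siRNA changed SNAI1 past the test. With DXR, siMlx against siControl gave 0.375 ± 0.16 (adjusted p = 0.0890). It passed once the replicate number was a block (adjusted p = 0.02795), with no low-count filter (0.00557) and without DXR siMlx library 2 (0.49, adjusted p = 0.0448). With the block, so did siMondoA against siMlx, at -0.34 (adjusted p = 0.0410, against -0.33 and 0.118 without the block). The ratio of SNAI1 to SNAI2 RPKM was 4.78 ± 0.54 in siMondoA, 1.55 ± 0.17 in siMlx and 2.45 ± 0.68 in siControl untreated cells (SD, n = 3 each).

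ZEB2 and ZEB1 are zinc-finger homeobox repressors with a shared set of E-box targets. ZEB2 (chr2:144364364-144524583, minus strand) was lower with siMondoA in both conditions. In untreated cells it had 23.5, 25.8 and 26.7 CPM with siMondoA, 38.0, 37.7 and 43.7 CPM with siMlx, and 49.5, 43.7 and 51.0 CPM with siControl. With DXR it had 28.75, 29.4 and 30.95 CPM with siMondoA, 43.4, 39.8 and 42.7 CPM with siMlx, and 39.5, 39.5 and 40.4 CPM with siControl. The siMondoA libraries lay below all others in both conditions, and the siMlx libraries overlapped those of siControl. The log2 fold change of siMondoA against siControl was -0.93 ± 0.07 in untreated cells (adjusted p = 3.91e-09) and -0.42 ± 0.07 with DXR (adjusted p = 0.000249). For siMlx it was -0.27 ± 0.07 in untreated cells (adjusted p = 0.00339) and 0.08 ± 0.07 with DXR (adjusted p = 0.4685).

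A test of the difference asked whether a gene's response to a knockdown differed between conditions. With all 18 libraries, the low-count filter and no replicate block, ZEB2 was the one gene of the 10 that passed it. That count is near the share over all genes, and KRT18 passed for siMlx in other settings, given below. For ZEB2 the interaction of siMondoA with DXR was 0.50 ± 0.10 on the log2 scale (adjusted p = 0.00408), 1 of 10 genes where 10.1% of all genes passed. That of siMlx with DXR was 0.35 ± 0.10 (adjusted p = 0.0279), 1 of 10 genes where 12.2% of all genes passed. DXR against untreated moved ZEB2 by 0.23 ± 0.08 with siMondoA, by 0.075 ± 0.07 with siMlx and by -0.27 ± 0.07 with siControl (adjusted p = 0.01495, 0.3775 and 0.00264). The siMlx interaction was lost without any 1 of 7 libraries: untreated siControl 1 or 3, untreated siMlx 1 or 2, DXR siControl 1 or 2, or DXR siMlx 3 (0.305 to 0.35, adjusted p = 0.0562 to 0.0786). The DXR call with siMondoA was lost without untreated siMondoA library 1 (0.18, adjusted p = 0.0804) or DXR siMondoA library 3 (0.20, adjusted p = 0.06025).

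ZEB1 (chr10:31318495-31529814, plus strand) was lower with siMondoA in untreated cells. There it had 28.7, 33.5 and 28.0 CPM with siMondoA, 43.3, 42.1 and 45.1 CPM with siMlx, and 41.2, 39.6 and 35.9 CPM with siControl. The siMondoA libraries lay below the rest without overlap, and the log2 fold change against siControl was -0.37 ± 0.08 (adjusted p = 0.000564). With DXR the groups overlapped, at 35.8 to 42.35 CPM with siMondoA and 41.1 to 42.6 CPM with siControl, and the fold change of -0.13 ± 0.08 did not pass (adjusted p = 0.223). ZEB1 was higher with DXR than untreated with siMondoA, by 0.34 ± 0.08 (adjusted p = 0.00110). The DXR fold change was 0.05 ± 0.08 with siMlx and 0.11 ± 0.075 with siControl, neither past the test. The interaction of siMondoA with DXR for ZEB1 was 0.23 ± 0.11 and did not pass (adjusted p = 0.189). ZEB1-AS1, the antisense gene beside ZEB1, had 48 to 113 counts per library, 8.79% of the ZEB1 counts in all. With those counts added, siMlx against siControl in untreated cells passed at 0.18 (adjusted p = 0.0363), against 0.16 ± 0.075 without them (adjusted p = 0.0866). Without them it also passed with upper-quartile scaling (0.20, adjusted p = 0.0326).

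The promoters of ZEB1, ZEB2, TWIST2 and KRT8 are shown because E-boxes are what SNAIL, ZEB and TWIST factors, and MondoA with MLX, bind. RefSeq promoters (GRCh38.p14), stretches that lie mostly before a gene's start, matched 6 of the 10 genes: VIM, CDH2, ZEB1, ZEB2, TWIST2 and KRT8. RefSeq's start is not always that of the GENCODE span given with a gene, and the stretches of KRT8, ZEB2 and CDH2 lie inside that span. Capitals mark CANNTG, the general E-box, searched on both strands. The stretches are chr10:31318167-31318466 (plus) for ZEB1, chr2:144520070-144520369 (minus) for ZEB2, chr2:238847835-238848134 (plus) for TWIST2 and chr12:52926420-52926719 (minus) for KRT8, each written 5′ to 3′.
ZEB1: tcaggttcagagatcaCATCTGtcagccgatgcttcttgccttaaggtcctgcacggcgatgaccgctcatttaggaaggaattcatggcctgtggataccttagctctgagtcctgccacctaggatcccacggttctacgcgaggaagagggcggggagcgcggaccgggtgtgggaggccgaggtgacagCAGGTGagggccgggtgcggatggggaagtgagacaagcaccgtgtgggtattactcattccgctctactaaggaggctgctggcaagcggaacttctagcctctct
ZEB2: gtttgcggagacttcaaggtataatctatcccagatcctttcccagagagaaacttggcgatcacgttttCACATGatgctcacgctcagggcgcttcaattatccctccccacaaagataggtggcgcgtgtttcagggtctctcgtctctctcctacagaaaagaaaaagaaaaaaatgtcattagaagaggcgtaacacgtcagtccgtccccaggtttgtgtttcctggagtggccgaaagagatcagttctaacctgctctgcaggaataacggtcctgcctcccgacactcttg
TWIST2: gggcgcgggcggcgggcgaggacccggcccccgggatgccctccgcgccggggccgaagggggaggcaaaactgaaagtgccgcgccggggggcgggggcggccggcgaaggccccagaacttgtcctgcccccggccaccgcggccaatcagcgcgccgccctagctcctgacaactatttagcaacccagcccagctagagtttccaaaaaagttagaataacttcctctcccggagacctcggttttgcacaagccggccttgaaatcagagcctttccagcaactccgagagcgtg
KRT8: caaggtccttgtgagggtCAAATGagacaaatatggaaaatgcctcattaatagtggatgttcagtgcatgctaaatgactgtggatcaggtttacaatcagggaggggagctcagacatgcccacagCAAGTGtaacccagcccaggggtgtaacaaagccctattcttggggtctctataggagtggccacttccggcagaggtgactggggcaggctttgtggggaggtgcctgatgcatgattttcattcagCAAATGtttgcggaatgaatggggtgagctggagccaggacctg
ZEB1 holds 2 general E-boxes, of which 1 is CAGGTG, the form that SNAIL and ZEB factors prefer (the reverse strand reads CACCTG). ZEB2 holds 1, KRT8 holds 3, and VIM, CDH2 and TWIST2 hold none. CACGTG, the E-box of the element that MondoA and MLX bind, is in none of the 6 windows. Both of these 6-letter forms are also counted under CANNTG. Of all 35116 promoters of the same length, 68.7% hold CANNTG, 20.6% CAGGTG and 7.26% CACGTG.

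TWIST2 and TWIST1 are basic helix-loop-helix factors of the transition. TWIST2 (chr2:238848032-238910543, plus strand) was the factor that fell furthest under DXR. With DXR it had 3.20, 3.70 and 5.07 CPM with siMondoA, 6.51, 4.23 and 3.89 CPM with siMlx, and 3.11, 3.69 and 3.88 CPM with siControl. Untreated cells had 7.57, 7.43 and 10.6 CPM with siMondoA, 13.2, 13.1 and 11.4 CPM with siMlx, and 7.39, 6.98 and 8.26 CPM with siControl. All 9 DXR libraries lay below all 9 untreated libraries. The log2 fold change of DXR was -1.085 ± 0.19 with siMondoA, -1.375 ± 0.18 with siMlx and -1.085 ± 0.19 with siControl (adjusted p = 9.32e-05, 1.93e-06 and 7.28e-05). These rest on 57 to 260 counts per library. In untreated cells TWIST2 was higher with siMlx than with siControl, by 0.73 ± 0.17 (adjusted p = 0.00125), and the libraries did not overlap. TWIST1 (chr7:19020991-19117672, minus strand) stayed between 5.89 and 10.2 CPM in all 18 libraries. It fell under DXR with siControl (-0.42 ± 0.125, adjusted p = 0.00785) and with siMlx (-0.29 ± 0.125, adjusted p = 0.0492), and the value with siMondoA was 0.02 ± 0.13. The siControl call was lost without the untreated siControl library 3 (-0.29, adjusted p = 0.0699). The siMlx call was lost with RLE scaling (adjusted p = 0.0645), upper-quartile scaling (0.0659), no low-count filter (0.0703), only the groups compared (0.0607) and DESeq2 (0.109), and without untreated siMlx library 1 or 3 or any DXR siMlx library (-0.24 to -0.29, adjusted p = 0.0945 to 0.151). The ratio of TWIST1 to TWIST2 RPKM was 0.95 ± 0.21 with DXR and 0.43 ± 0.05 untreated with siMondoA, 0.82 ± 0.19 and 0.37 ± 0.04 with siMlx, and 0.90 ± 0.20 and 0.56 ± 0.04 with siControl.

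**Figure D3:**
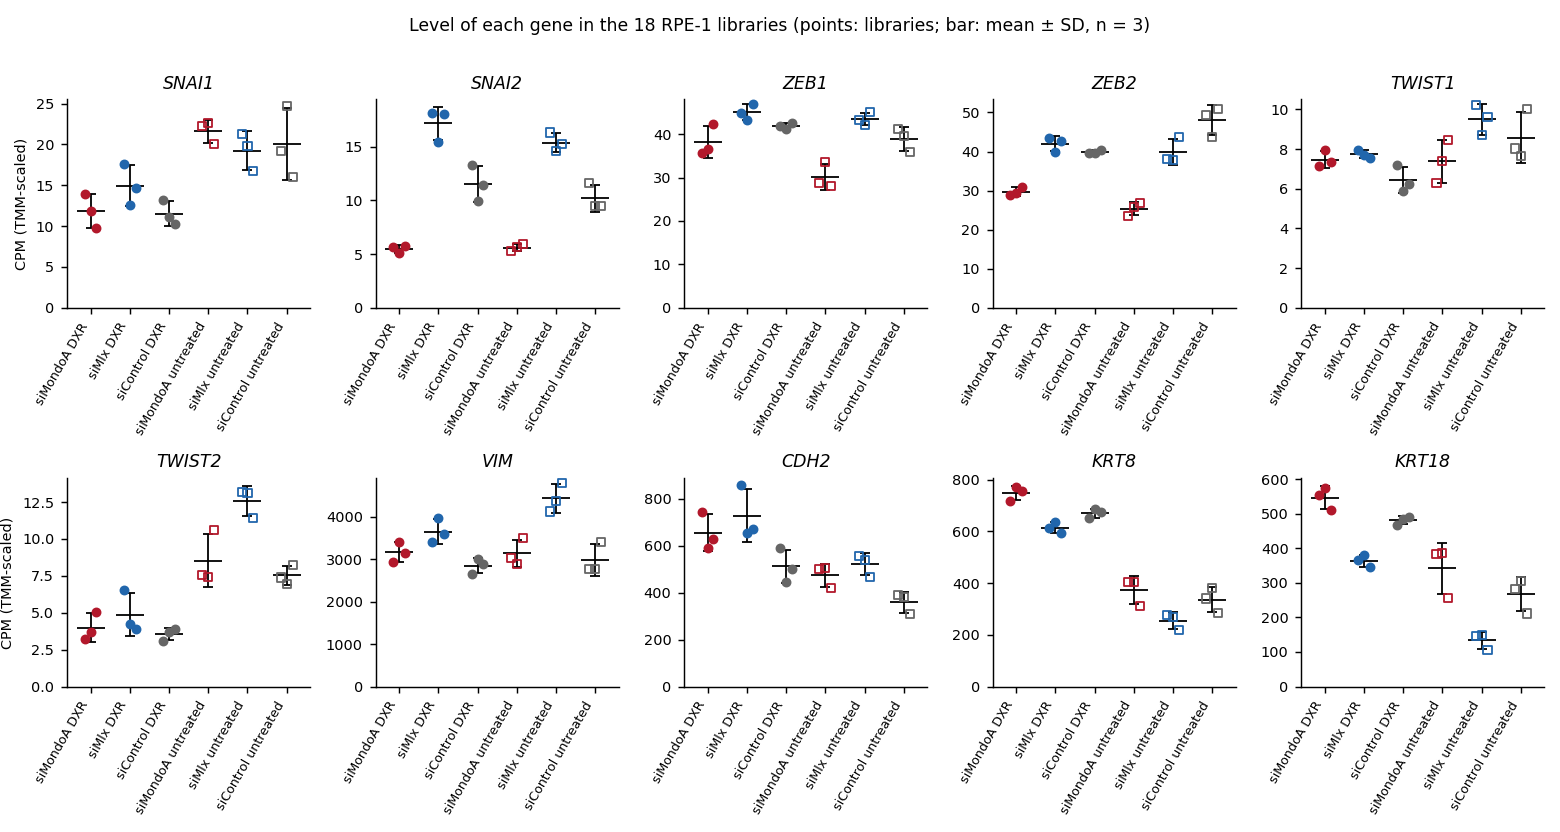
CPM of each of the 10 genes in the 18 libraries by group (points, coloured by siRNA; filled, DXR; open, untreated), with the mean and SD of 3 libraries. All 6 siMondoA libraries lie below 6 CPM for SNAI2, and all DXR libraries lie below 7 CPM and all untreated libraries above 6.9 CPM for TWIST2.

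VIM encodes vimentin (chr10:17228259-17237593, plus strand). It was higher with siMlx in both conditions. In untreated cells it had 3024, 2885 and 3488 CPM with siMondoA, 4120.0, 4374 and 4791 CPM with siMlx, and 2764, 2763 and 3411 CPM with siControl. With DXR it had 2927, 3404 and 3151 CPM with siMondoA, 3395, 3968 and 3582 CPM with siMlx, and 2642, 2992 and 2894 CPM with siControl. The siMlx libraries lay above all siControl libraries in each condition, while those of siMondoA overlapped siControl. The log2 fold change of siMlx against siControl was 0.57 ± 0.09 in untreated cells (adjusted p = 3.55e-05) and 0.36 ± 0.09 with DXR (adjusted p = 0.005255). For siMondoA against siControl it was 0.07 ± 0.09 and 0.15 ± 0.09, neither past the test (adjusted p = 0.547 and 0.245). VIM was lower with DXR than untreated with siMlx, at -0.28 ± 0.09 (adjusted p = 0.0122). That call was lost without untreated siMlx library 3 (-0.22, adjusted p = 0.0669) or DXR siMlx library 1 (-0.21, adjusted p = 0.0878). With siMondoA and siControl the DXR values were 0.01 ± 0.09 and -0.07 ± 0.09.

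CDH2 encodes N-cadherin, the adhesion protein of mesenchymal and neural cells (chr18:27950966-28177446, minus strand). It was the one gene of the 10 higher in every one of these comparisons with siControl and with untreated cells. With DXR it had 744, 591 and 629.5 CPM with siMondoA, 858, 652 and 671 CPM with siMlx, and 588, 446.5 and 498.5 CPM with siControl. Untreated cells had 500.1, 504 and 418 CPM with siMondoA, 555.5, 538 and 466 CPM with siMlx, and 389.6, 380.4 and 308 CPM with siControl. Within each condition all siMondoA and siMlx libraries lay above all siControl libraries. The log2 fold change against siControl was 0.40 ± 0.12 for siMondoA and 0.53 ± 0.12 for siMlx in untreated cells (adjusted p = 0.0112 and 0.00133). With DXR it was 0.36 ± 0.12 for siMondoA and 0.51 ± 0.12 for siMlx (adjusted p = 0.0385 and 0.00355). Both siMondoA calls depend on single libraries. The untreated one was lost without siControl library 3 (0.30, adjusted p = 0.0706), and the one with DXR without any of 4 libraries: siControl library 2 or 3, or siMondoA library 1 or 3 (0.265, 0.34, 0.255 and 0.38, adjusted p = 0.179, 0.104, 0.184 and 0.0558). CDH2 was higher with DXR than untreated by 0.465 ± 0.12 with siMondoA, 0.48 ± 0.12 with siMlx and 0.51 ± 0.12 with siControl (adjusted p = 0.00338, 0.00194 and 0.00153). The sums of fibroblast and mural cell markers, given above, were also higher with DXR. Of the 7 markers tested, 4 were higher and 1 lower with siMondoA, 6 and 0 with siMlx, and 5 and 2 with siControl. Of all genes, 54.2%, 62.1% and 56.7% passed in these comparisons. The part of these markers in the CDH2 result was not tested.

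KRT8 and KRT18 encode the type II and type I keratins that pair in simple epithelia, and lie side by side on chromosome 12 (KRT8, chr12:52897187-52949954, minus strand; KRT18, chr12:52948871-52952901, plus strand). Their GENCODE spans overlap, and the strand setting of the counting is not given in the sources used here, so reads in the shared stretch are uncertain. Both rose under DXR with each siRNA. KRT8 had 719, 774 and 756 CPM with siMondoA, 614, 636 and 594 CPM with siMlx, and 650.4, 686 and 674 CPM with siControl in DXR cells. In untreated cells KRT8 had 405, 403 and 311 CPM with siMondoA, 276, 270.1 and 218 CPM with siMlx, and 341, 382 and 286 CPM with siControl. Every DXR library exceeded every untreated library. The DXR log2 fold change of KRT8 was 1.01 ± 0.10 with siMondoA, 1.27 ± 0.10 with siMlx and 1.00 ± 0.10 with siControl (adjusted p = 1.4e-07, 3.1e-09 and 1.3e-07).

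KRT18 had 553, 574 and 512 CPM with siMondoA, 365, 381 and 346.5 CPM with siMlx, and 468, 485 and 490.5 CPM with siControl in DXR cells. In untreated cells KRT18 had 383, 386.5 and 257 CPM with siMondoA, 145, 150.2 and 106 CPM with siMlx, and 282, 305 and 211 CPM with siControl. The siMlx libraries lay below all others within each condition. The DXR log2 fold change of KRT18 was 0.675 ± 0.14 with siMondoA, 1.445 ± 0.15 with siMlx and 0.855 ± 0.14 with siControl (adjusted p = 0.000507, 5.27e-08 and 3.95e-05). The interaction of siMlx with DXR for KRT18 was 0.59 ± 0.20 and did not pass (adjusted p = 0.06195). It did without untreated siControl library 3 (0.73, adjusted p = 0.0137), with the replicate block (0.58, 0.00652) and with only its groups fitted (0.59, 0.0356). It also passed with no low-count filter (0.60, adjusted p = 7.48e-09) and with the untreated libraries numbered 3 left out (0.59, adjusted p = 0.000278).

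Both keratins were lower with siMlx than with siControl in untreated cells. Against siControl, the log2 fold change was -0.99 ± 0.14 for KRT18 and -0.40 ± 0.10 for KRT8 (adjusted p = 1.16e-05 and 0.00339). With DXR, siMlx gave -0.40 ± 0.14 for KRT18 (adjusted p = 0.0365), a call lost with upper-quartile scaling (adjusted p = 0.0586), with DESeq2 (0.0503) and without any of the 6 libraries (-0.37 to -0.44, adjusted p = 0.0549 to 0.110). KRT8 was -0.125 ± 0.10 there (adjusted p = 0.389). For siMondoA against siControl in untreated cells KRT18 was 0.36 ± 0.14 (adjusted p = 0.0413), with overlapping libraries. The call was lost with DESeq2 (adjusted p = 0.0671) and with only the groups compared (0.0913). It was also lost without untreated siControl library 1 or siMondoA library 1 or 2 (0.41, 0.28 and 0.27, adjusted p = 0.0514, 0.174 and 0.183). Without the untreated siControl library 3 the KRT18 value was 0.22 (adjusted p = 0.221). KRT8 did not pass for siMondoA in either condition, at 0.15 ± 0.10 untreated and 0.16 ± 0.10 with DXR, but did without untreated siMondoA library 3 (0.265, adjusted p = 0.0330). The ratio of KRT8 to KRT18 RPKM was 0.75 ± 0.06 in siMondoA, 1.30 ± 0.09 in siMlx and 0.86 ± 0.05 in siControl untreated cells (SD, n = 3 each). With DXR it was 0.93 ± 0.06 in siMondoA, 1.145 ± 0.02 in siMlx and 0.94 ± 0.01 in siControl cells. The siMlx libraries exceeded the others in this ratio in both conditions.

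Vimentin stood highest relative to keratin 18 with siMlx. The ratio of VIM to KRT18 RPKM was 13.6, 13.9 and 21.7 in untreated siMlx libraries, 3.78, 3.57 and 6.48 in untreated siMondoA libraries and 4.68, 4.33 and 7.725 in untreated siControl libraries. With DXR it was 4.45, 4.98 and 4.94 in siMlx, 2.53, 2.83 and 2.945 in siMondoA and 2.70, 2.95 and 2.82 in siControl libraries. The siMlx libraries exceeded all others of their condition, and the library numbered 3 was the highest of each untreated group.

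**Figure D4:**
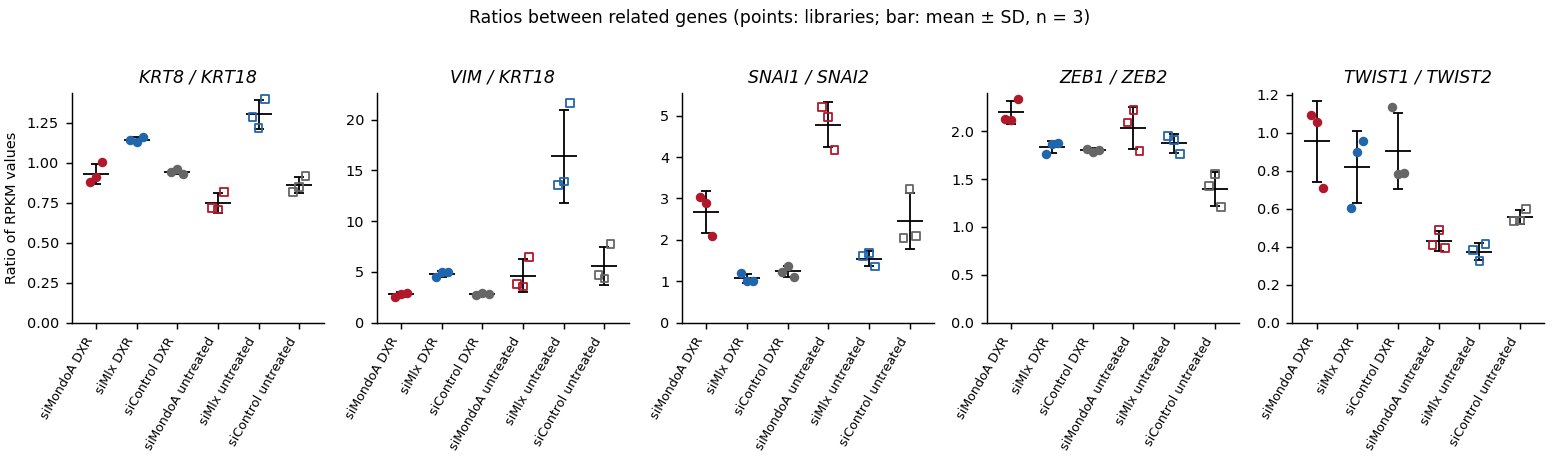
Ratios of deposited RPKM between related genes in each library (points; filled, DXR; open, untreated), with the mean and SD of 3 libraries. KRT8 over KRT18 is 1.13 or higher in the siMlx libraries and 1.002 or lower in the others, and SNAI1 over SNAI2 is 4.17 or higher in untreated siMondoA libraries.

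Set directly against siMlx, siMondoA in untreated cells was lower in 6 genes and higher in 2 of the 10, where 58.9% of all genes passed. The lower genes were SNAI2, ZEB2 (-0.65 ± 0.07), TWIST2 (-0.57 ± 0.17), ZEB1 (-0.53 ± 0.08), VIM (-0.50 ± 0.09) and TWIST1 (-0.365 ± 0.13), and the higher ones KRT18 (1.36 ± 0.145) and KRT8 (0.55 ± 0.10). The TWIST1 call was lost without untreated siMlx library 1 or siMondoA library 1 (-0.31 and -0.27, adjusted p = 0.0701 and 0.102). With DXR, 3 genes were lower and 2 higher, where 39.0% of all genes passed. SNAI2, ZEB2 (-0.50 ± 0.07) and ZEB1 (-0.24 ± 0.08) were lower, and KRT18 (0.59 ± 0.14) and KRT8 (0.29 ± 0.10) higher. The ZEB1 call was lost without DXR siMlx library 3 or siMondoA library 1 or 2 (-0.19 to -0.21, adjusted p = 0.07205 to 0.0854). The KRT8 call was lost with upper-quartile scaling (adjusted p = 0.0560) and without DXR siMlx library 1 or 3 or siMondoA library 2 or 3 (0.26 to 0.28, adjusted p = 0.0679 to 0.09595). With the replicate number as a block, VIM also passed at -0.21 with DXR (adjusted p = 0.0233, against 0.0807 without the block). The medians of the 10 genes were -0.43 untreated and -0.22 with DXR, beside -0.01 and -0.01 over all genes tested.

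Within groups, libraries deviated together in some of these genes. After each group's mean was taken out, log2 CPM of KRT8 and KRT18 correlated at 0.96 over the 18 libraries, CDH2 and SNAI1 at 0.79, and VIM and CDH2 at -0.92. ZEB2 correlated at -0.78 with KRT8 and at -0.79 with KRT18. These values share the libraries' depth and scaling and describe these libraries only. Leaving out the 3 untreated libraries numbered 3, a choice made after seeing the data, left 5 of 10 calls for siMondoA against siControl in untreated cells. For siMlx against siControl there it left 7 of 10. The share of all genes that passed in that fit is not given here, so neither count is read as a result about these genes. With those 3 libraries left out, TWIST1 no longer passed under DXR with siControl or with siMlx (adjusted p = 0.0614 and 0.0567). KRT8 and KRT18 then passed for the interaction of siMlx with DXR (0.28 and 0.59, adjusted p = 0.0361 and 0.000278).

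Most of the other mesenchymal effectors tested were higher under DXR. Of 20 tested, 15 were higher and 1 lower with each of siMondoA, siMlx and siControl, where 26.2%, 30.9% and 28.1% of all genes tested were higher, with median log2 fold changes of 0.80, 1.01 and 0.74, beside -0.02, 0.00 and -0.01 over all genes tested. With siControl the matrix protein SPARC rose by 1.18 ± 0.07 on the log2 scale, the smooth-muscle actin-binding protein TAGLN by 2.16 ± 0.18 and the collagen cross-linking enzyme LOX by 0.79 ± 0.06, while the receptor AXL fell by 0.89 ± 0.06 (adjusted p = 5.61e-11, 7.52e-09, 2.1e-09 and 2.68e-10). Against siControl the counts were not above the share over all genes given earlier: 2 higher and 4 lower with siMondoA and 3 higher and 6 lower with siMlx in untreated cells, then 0 higher and 1 lower with siMondoA and 2 higher and 2 lower with siMlx in DXR cells. Past the test were 3 genes in place of 6 for untreated siMondoA without siControl library 1, and 2 or 1 in place of 4 for siMlx with DXR without siControl library 2 or siMlx library 3. With siMondoA in untreated cells LOX was at -0.35 ± 0.06 and AXL at -0.34 ± 0.06 (adjusted p = 6.39e-05 and 6.28e-05).

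The share of junction genes past the test under DXR was near that of all genes with siControl. Of 20 epithelial junction and polarity genes listed, 11 were tested. With siMondoA 5 were higher and 3 lower under DXR, with siMlx 6 and 3, and with siControl 4 and 2, where 54.2%, 62.1% and 56.7% of all genes passed in either direction. With siControl the tight-junction protein CLDN1 rose by 3.30 ± 0.18, the junctional adhesion molecule F11R by 3.42 ± 0.24, and the desmosomal proteins DSP and PKP2 by 1.70 ± 0.165 and 1.57 ± 0.15 (adjusted p = 3.47e-11, 7.32e-10, 5.46e-08 and 4.3e-08). CLDN1 and F11R stayed low, averaging 13.96 and 13.7 CPM in siControl cells with DXR and 1.41 and 1.32 CPM in untreated siControl cells. In untreated cells 3 were higher and 1 lower with siMondoA, and 5 higher and 1 lower with siMlx, where 46.6% and 47.9% of all genes passed. Plakoglobin (JUP) was higher by 0.88 ± 0.09 with siMondoA and cingulin (CGN) was at -2.56 ± 0.32, both junction plaque proteins, and TJP1 was higher by 0.315 ± 0.06 with siMlx (adjusted p = 1.2e-07, 2.025e-06 and 0.000249).

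**Figure D5:**
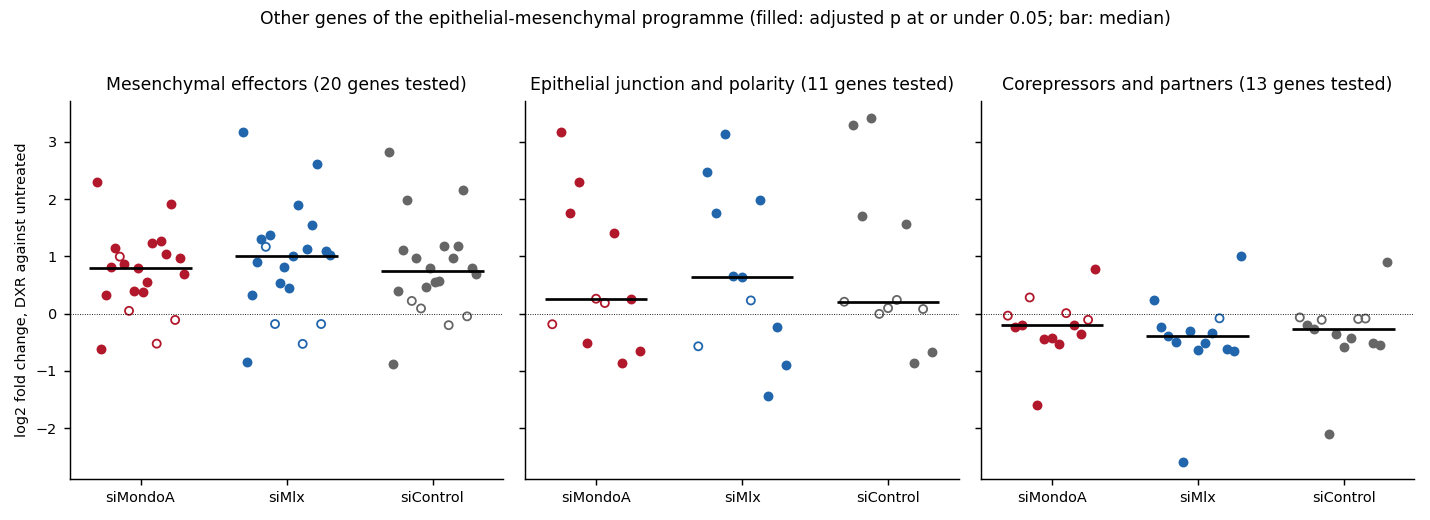
log2 fold change of DXR against untreated with siMondoA, siMlx and siControl for the tested genes of 3 lists (points; filled, adjusted p at or under 0.05; bar, median). In the list of mesenchymal effectors 15 of 20 genes are filled above 0 with each siRNA, and in the list of corepressors 8, 10 and 8 of 13 are filled below 0. Of all genes tested, 26.2%, 30.9% and 28.1% were higher and 28.0%, 31.2% and 28.6% lower with siMondoA, siMlx and siControl.

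The counts of the remaining lists are to be read against the share of all genes that passed, which was 46.6% with siMondoA and 47.9% with siMlx in untreated cells and 56.7% under DXR with siControl. Of the 12 epithelial transcription and splicing regulators, KLF4 and KLF5 were tested. KLF4 was higher by 1.65 ± 0.27 and KLF5 by 0.43 ± 0.10 with siMondoA in untreated cells, and KLF5 was lower with siMlx, at -1.36 ± 0.11 (adjusted p = 4.295e-05, 0.00142 and 6.74e-09). Under DXR with siControl both rose, by 1.08 ± 0.28 and 0.71 ± 0.10. Of 11 other keratin and intermediate filament genes tested, 1 was higher and 5 lower with siMondoA, 1 higher and 4 lower with siMlx in untreated cells, and 0 higher and 3 lower under DXR with siControl. The siMlx count of 5 became 3 without untreated siControl library 1 or 2 or siMlx library 1. The neural filament protein NES was at -1.38 ± 0.17 with siMondoA, and SYNM, another filament protein, at -1.31 ± 0.10 with siMlx and -0.84 ± 0.10 under DXR with siControl. Of 18 other mesenchymal transcription factors, 5 were higher and 6 lower with siMondoA, 6 and 7 with siMlx, and 8 and 7 under DXR with siControl. ETS1 was at -0.90 ± 0.065 with siMondoA and HMGA2 at -1.49 ± 0.10 with siMlx.

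The same shares over all genes stand beside the next lists. Among 13 corepressors and partners of the SNAIL and ZEB factors, 3 were higher and 3 lower with siMondoA and 5 higher and 0 lower with siMlx. Under DXR with siControl 1 was higher and 8 were lower, where 28.1% of all genes were higher and 28.6% lower. The Polycomb enzyme EZH2 was at -1.25 ± 0.13 with siMondoA and -2.097 ± 0.14 under DXR with siControl (adjusted p = 1.42e-07 and 3e-10). CTBP1 and CTBP2, corepressors that ZEB factors bind, were higher with siMlx, by 0.375 ± 0.05 and 0.48 ± 0.05. All 32 listed genes of TGF-beta and BMP signalling, a main inducer of the transition, were tested. With siMondoA 7 were higher and 10 lower, with siMlx 9 and 15, and under DXR with siControl 7 and 16. SMAD2 and SMAD4, which carry the signal to the nucleus, were at -1.72 ± 0.07 and -1.13 ± 0.06 with siMondoA in untreated cells (adjusted p = 1.875e-13 and 1.25e-11). BMP4, a ligand, was at -1.04 ± 0.07 with siMlx and rose by 0.845 ± 0.07 under DXR with siControl.

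Markers of other cell types passed the test at shares to be read against the same 46.6%, 47.9% and 56.7% of all genes. Of 7 fibroblast and mural cell markers tested, 2 were higher and 2 lower with siMondoA, 0 higher and 3 lower with siMlx in untreated cells, and 5 higher and 2 lower under DXR with siControl. POSTN and RGS5 rose under DXR by 3.07 ± 0.14 and 3.01 ± 0.17, to means of 24.7 and 74.0 CPM with DXR, against 2.905 and 9.15 CPM in untreated siControl cells. Of 6 pigment epithelium markers tested, 0 were higher and 2 lower with siMondoA, 0 higher and 2 lower with siMlx, and 2 higher and 2 lower under DXR with siControl. MITF was at -0.75 ± 0.085 with siMlx (adjusted p = 4.57e-07), and the list's sum ran from 62.3 to 73.3 CPM in siMlx and 80.8 to 88.8 CPM in siControl untreated libraries. Of 5 blood and endothelial markers tested, 0 were higher and 2 lower with siMondoA, 0 and 3 with siMlx, and 3 and 1 under DXR with siControl. The siMondoA count of 2 became 1 without untreated siControl library 2 or 3 or siMondoA library 1 or 2 for the pigment epithelium, and without siControl library 1 or 3 or siMondoA library 2 or 3 for blood and endothelium. The part of these markers in the values of the 10 genes was not tested.

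For each of the 10 genes, the genes most like it were those whose log2 CPM correlated best with it over the 18 libraries, among 10101 genes with a mean of at least 5 CPM. The correlation was highest for the keratins: KRT8 with CREB3 at 0.99 and GNPTG at 0.98, and KRT18 with GOPC and DSE, both at 0.98. For the factors, ZEB2 was most like DHX33 (0.97) and RIOK1 (0.96), SNAI2 most like PPARA and B4GALT3 (both 0.96), and TWIST2 most like CAPN15 (0.97) and CHN1 (0.96). ZEB1 was most like ITPRIPL2 (0.94) and CDC42EP3 (0.93), SNAI1 most like IDH1 and LIMK1 (both 0.94), and TWIST1 most like C15orf38 (0.86) and PPP1R15A (0.85). VIM was most like MAPKAPK3 and SCCPDH (both 0.94), and CDH2 most like S100A11 and STK38L (both 0.95). These correlations include the differences between the 6 groups. After each group's mean was taken out, they were 0.38 and 0.39 for SNAI2 and ran up to 0.91 for KRT8 with CREB3, while KRT8 with GNPTG stood at 0.66 and KRT18 with GOPC and DSE at 0.79 and 0.64.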

How the data were processed

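RNA of the 18 libraries was purified with RNeasy Plus and made into TruSeq Stranded mRNA libraries, per the labels' protocols. Per the submitters' processing notes, bcl2fastq and TopHat2 2.1.1 were used, with the build GRCh38. Which program counted the reads, with what annotation and strand setting, is not given in the sources used here. The authors deposited whole-number read counts per gene and RPKM values of the same libraries. Counts were tested with edgeR 4.0.16 in R 4.3.3: filterByExpr by group, TMM scaling, 1 mean per group over all 18 libraries, quasi-likelihood tests (two-sided, 11 contrasts), Benjamini-Hochberg adjustment over 13676 genes and a threshold of 0.05. The biological coefficient of variation was 7.42%. The script was checked on simulated counts. Library totals of 15503423 to 29219280 set the precision.

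The 10 genes and the lists were chosen with earlier results of these data known. Besides the 10 genes, MLXIP and MLX, the text names up to 4 genes of a list with the smallest p in a comparison and the 2 genes most like each of the 10. CDH1, EPCAM, RPE65, TYR, DCT, HBB and some other list genes outside this rule were named after their values were seen. The alternatives were RLE and upper-quartile scaling, no low-count filter, DESeq2 1.42.0, only the groups compared, a replicate block, each library left out, and pseudogene or antisense counts added. Same-numbered libraries of the groups compared deviated together, with all 3 correlations over 0.1, in the 3 comparisons between siRNAs with DXR (0.168 to 0.277). They also did for siMondoA against siControl untreated (0.101 to 0.33), and the numbers were taken to pair the samples in these comparisons only. The tests given first had no replicate block there either. Each replicate number goes with the same suffix in the library names of all groups, and the labels do not explain the suffixes. The untreated siMlx library numbered 3 also correlated with that of siControl and of siMondoA, at 0.245 and 0.21. Coordinates are from GENCODE release 29 and promoters from RefSeq, both on GRCh38.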

Additional observations from a re-analysis of the deposited data

Results flagged for a closer look

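The effect of the siMondoA knockdown on ZEB2 differed between DXR and untreated cells by a test of the difference itself. The interaction was 0.504 on the log2 scale, with siMondoA against siControl at -0.42 with DXR and -0.93 in untreated cells. The effect of the siMlx knockdown on ZEB2 also passed that test, with an interaction of 0.349 and siMlx against siControl at 0.08 with DXR and -0.27 in untreated cells. This call was lost without any 1 of 7 libraries (adjusted p = 0.0562 to 0.0786). Both interactions use the same siControl libraries. Each was 1 of 10 genes, where 10.1% (siMondoA) and 12.2% (siMlx) of all genes passed.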

How the results depend on the processing

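Over the alternatives, 1495 of 1575 values of single genes kept their direction and side of the threshold, 60 no longer passed, 20 newly passed and none changed sign past the test. With 1 library left out at a time, the genes past the test were 3 to 6 for siMondoA against siControl untreated (5 with all libraries), 3 to 5 for siMondoA against siMlx with DXR (5) and 0 to 1 for the interaction of siMlx with DXR (1). That interaction gave 4 genes with no low-count filter, 2 with the replicate block, 2 with only its groups fitted and 3 without the untreated libraries numbered 3; the cause was not tested. KRT18 was among them each time, at 0.60, 0.58, 0.59 and 0.59. Where the numbers paired the samples, the replicate block changed the calls given above and no other call of the 10 genes. It also gave 2 mesenchymal effectors for siMondoA against siControl and 6 for siMondoA against siMlx with DXR, against 1 and 3 without it. With upper-quartile scaling the share of higher calls over all genes was 56.2% in place of 46.2% for siMlx against siControl with DXR, and 45.4% in place of 57.7% for the interaction of siMondoA with DXR. Without the low-count filter, mesenchymal effectors past the test were 10 for siMondoA and 14 for siMlx untreated, and 4 and 11 with DXR. With it they were 6, 9, 1 and 4. The share of all genes that passed is not set beside the counts without the filter, with the block or with a library left out. None of those counts is therefore read as a result about these genes. Over all genes, the interaction of siMondoA with DXR passed for 918 in place of 1384 without untreated siMondoA library 1. Pseudogene counts added to KRT8 and KRT18 changed no call. The SEs of TWIST2, which had 57 to 260 counts per library, were 0.167 to 0.211 in the 9 comparisons of groups.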
